A study of Mus musculus with 14 samples.

Results

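The genes described here encode actins, myosins and proteins that remodel actin filaments in the embryonic mouse epidermis. They are the protein-coding genes of the count table whose symbols start with Myo, Myh or Myl and a number, with Mylk, Tpm, Actn, Mical, Cyfip, Diaph or Wasf, together with Actb, Actg1, Acta2, Vcl, Cnn2, Cnn3, Cfl1 and Tagln2. By symbol alone this rule found 80 genes among 26252 in the table, and 60 of them had enough counts to be tested.

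RNA was sequenced from 14 libraries of dorsal skin epithelium of wild-type (WT) C57BL/6JOlaHsd embryos. The embryos were taken at E14.5, when hair placodes, the epithelial thickenings that form follicles, lie within the interfollicular epithelium (IFE). One fraction held live cells positive for the adhesion molecule MAdCAM-1 and is called placode-enriched (n = 7), and the other held the MAdCAM-1 negative cells and is called IFE (n = 7). For each library 3 to 4 littermates were pooled, and both fractions of a litter form a pair by their title code. The sort enriches for placode cells and does not isolate them, no genotype or treatment separates the fractions, and all animals are of the same strain and stage.

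Actin filaments grow from monomers of beta-actin and gamma-actin, are nucleated by formins as straight filaments or by the WAVE and Arp2/3 complexes as branched networks, and are cut by cofilin. Non-muscle myosin II pulls on them to contract cell edges, tropomyosins coat them, alpha-actinins and calponins bind or crosslink them, and vinculin ties them to adhesions. MICAL enzymes oxidise actin and so take filaments apart, while unconventional myosins carry cargo or hold membranes to the filaments. In skin, hair placodes form by cell shape change and directed cell movement, processes that rest on this machinery.

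Totals lay between 23.8 and 49.5 M read counts in the placode-enriched and between 23.8 and 39.5 M in the IFE libraries. Markers of the labelled cells were present. Levels are given in CPM, read counts per library total after TMM scaling. The summed level of 8 placode markers was 961 to 1452 CPM in placode-enriched and 150 to 215 CPM in IFE libraries, and that of 7 basal markers was 5422 to 7178 CPM in placode-enriched and 6182 to 7815 CPM in IFE libraries. Markers of other cell types also differed between the fractions. All 6 suprabasal markers tested passed the test and were lower, with a sum of 187 to 431 CPM in placode-enriched and 2637 to 4189 CPM in IFE libraries. All 8 melanoblast markers were also lower (8.31 to 14.6 CPM in placode-enriched and 124 to 222 CPM in IFE libraries in sum), and of 6 periderm genes tested 5 were lower and 1 higher (92.1 to 105 CPM in placode-enriched and 219 to 288 CPM in IFE libraries in sum over 7). None of these markers was at 0 in all libraries of a fraction. Sums of Schwann cell and neuron markers were 81.8 to 111 CPM in placode-enriched and 144 to 157 CPM in IFE libraries, those of fibroblast markers 442 to 681 CPM in placode-enriched and 415 to 521 CPM in IFE libraries, and those of Merkel cell markers had a median of 3.75 CPM in placode-enriched libraries, against 0.439 CPM in IFE libraries. Most of the Schwann cell and neuron sum was Erbb3, with a mean of 87.7 CPM in placode-enriched libraries, against 142 CPM in IFE libraries. Most of the fibroblast sum was Dcn, with a mean of 498 CPM in placode-enriched libraries, against 258 CPM in IFE libraries. Of 7 fibroblast markers tested, 2 were higher, 2 were lower and 3 did not pass. Endothelial and immune markers summed to at most 7.90 CPM in any library, with Tyrobp at 0 in all placode-enriched and Cdh5 at 0 in all IFE libraries. In such pools, fewer cells of a type and less RNA per cell cannot be told apart.

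The comparison asked which genes set placode cells apart from the surrounding epidermis. At the level of the common machinery, both cytoplasmic actins, cofilin, Actn4, Tpm4, Tpm3 and Myl12a missed the threshold, whereas the likewise abundant Myh9 and Myl12b were slightly lower. Other members of most families also passed the threshold. Mical2 and Cyfip2 were 26.4-fold and 17.3-fold higher in placode-enriched cells, and Myo5b, Acta2 and Myh14 were the members with the lowest fold changes. Of the 60 members tested, 17 were higher, 16 were lower and 27 did not pass at an adjusted p of 0.05, so 55.0% were called, against 31.1% of all 15382 genes tested (edgeR's quasi-likelihood F test, blocked by pair, with Benjamini-Hochberg adjustment over all genes). The members' median log2 fold change was -0.02, as was that of all genes, and the median of its absolute value was 0.42 against 0.25. The median of the tested members' mean levels was 57.5 CPM, against 19.6 CPM for all genes tested, without correction for length. At least 2-fold differences were called in 12 members, where 10.6% of all genes had them. In 17 members, 11 higher and 6 lower, the CPM ranges of the fractions did not overlap, which held for 14.8% of all genes.

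**Figure D1:**
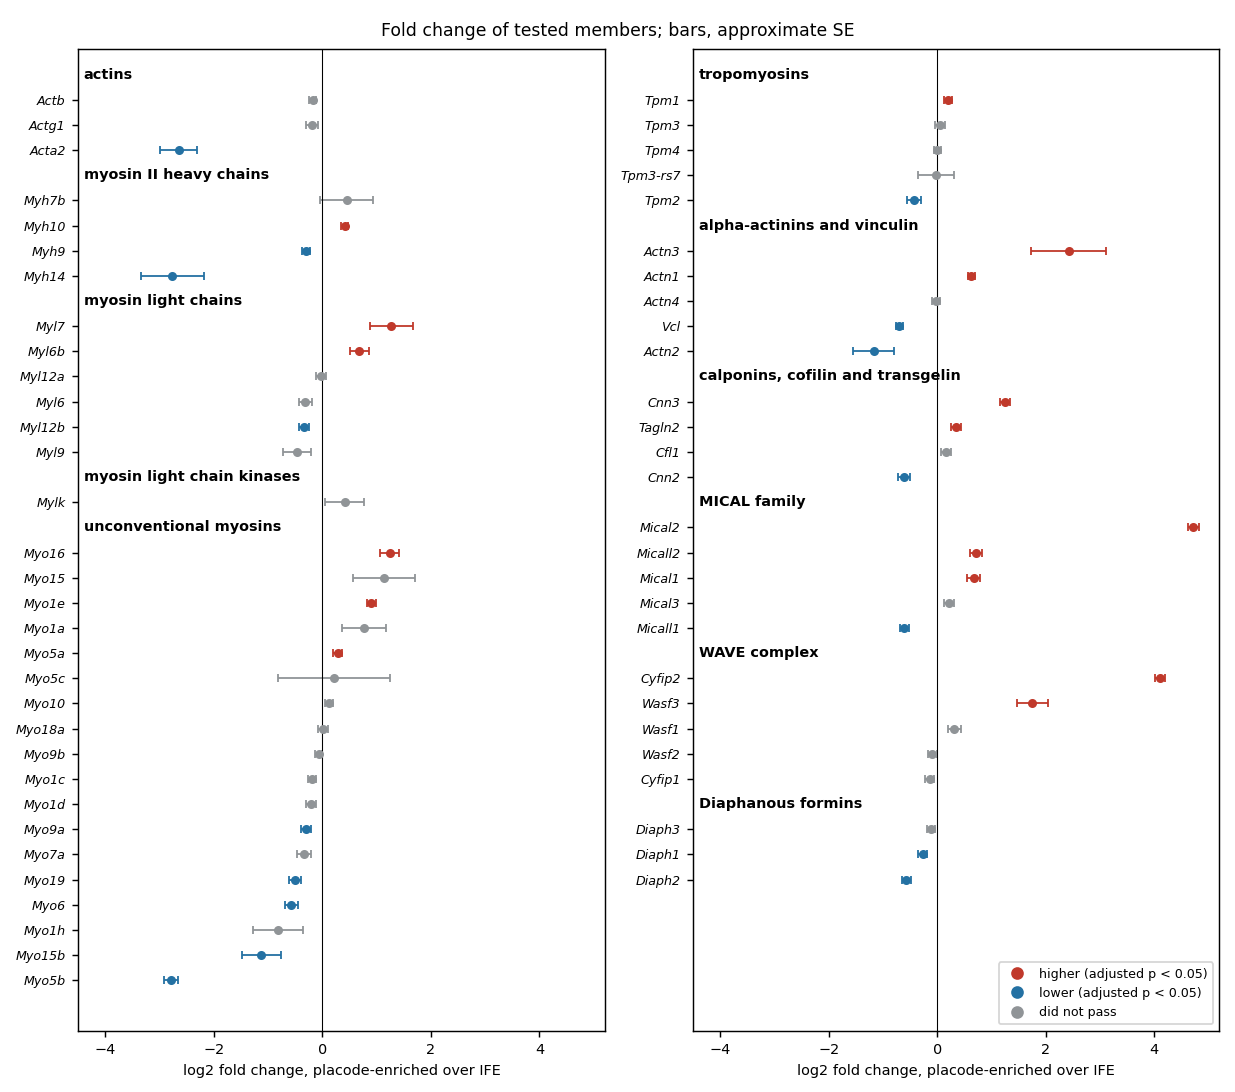
Log2 fold change (x axis, placode-enriched over IFE) of tested members by family, with approximate standard errors as bars. Red genes were higher and blue genes lower at an adjusted p under 0.05. Mical2 (4.72) and Cyfip2 (4.11) lie far to the right, and Myo5b (-2.79), Myh14 (-2.77) and Acta2 (-2.65) far to the left.

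Promoter letters of a few members are shown first, because the SRF transcription factor, known for driving actin genes with cofactors that sense free actin, binds the CArG box. The RefSeq promoter table (GRCm38.p6, 250 bases before to 50 after each start) had entries for 52 of the 60 tested members. Actb was among the members without an entry. A CArG box was taken as 10 bases with CC, then only A or T, then GG, a pattern of the same form on both strands. Such a box stood in the promoter of 7 of these 52 genes, or 13.46%, against 488 of 27025 genes in the table, or 1.81%. Of these 7, Myo1e and Myl7 were higher, Vcl and Cnn2 were lower, and Actg1, Myl6 and Myl9 did not pass. For each of these 7, a window of 100 bases within the 250 upstream of the start is printed with the CArG box in capitals, whose first base lies at -227 to -32 from the start, and Mical2 and Cyfip2, the members with the largest fold changes and with no box in their promoters, follow for contrast. Another promoter entry of Myl6, upstream of the one printed, had no CArG box. The letters are a description of these windows, not of binding.
Vcl, chr14:20929148-20929247, plus strand: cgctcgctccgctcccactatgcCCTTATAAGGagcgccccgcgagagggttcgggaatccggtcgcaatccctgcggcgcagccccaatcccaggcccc
Cnn2, chr10:79988499-79988598, plus strand: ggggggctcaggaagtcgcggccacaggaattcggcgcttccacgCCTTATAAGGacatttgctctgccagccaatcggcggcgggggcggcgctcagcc
Myo1e, chr9:70207250-70207349, plus strand: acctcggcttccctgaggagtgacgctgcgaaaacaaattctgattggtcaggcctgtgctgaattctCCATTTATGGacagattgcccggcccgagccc
Myl7, chr11:5898789-5898888, minus strand: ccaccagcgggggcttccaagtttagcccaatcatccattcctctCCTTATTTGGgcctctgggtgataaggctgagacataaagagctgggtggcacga
Actg1, chr11:120348531-120348630, minus strand: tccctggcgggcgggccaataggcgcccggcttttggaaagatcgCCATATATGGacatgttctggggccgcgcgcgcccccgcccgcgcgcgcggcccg
Myl6, chr10:128493010-128493109, minus strand: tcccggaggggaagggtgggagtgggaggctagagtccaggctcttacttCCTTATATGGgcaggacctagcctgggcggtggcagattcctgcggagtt
Myl9, chr2:156775258-156775357, plus strand: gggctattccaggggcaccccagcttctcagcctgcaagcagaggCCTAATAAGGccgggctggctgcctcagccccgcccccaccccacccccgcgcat
Mical2, chr7:112225736-112225835, plus strand: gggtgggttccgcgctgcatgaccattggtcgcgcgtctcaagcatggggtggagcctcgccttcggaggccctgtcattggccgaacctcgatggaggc
Cyfip2, chr11:46312359-46312458, minus strand: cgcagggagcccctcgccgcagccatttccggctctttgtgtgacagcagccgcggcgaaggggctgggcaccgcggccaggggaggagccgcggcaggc

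The genes for SRF and its cofactors did not pass in any of 3 cases (median log2 fold change -0.12). Mrtfb, which encodes one such cofactor, stood at 121, 177 and 205 CPM in placode-enriched libraries (lowest, median and highest), against 114, 172 and 187 CPM in IFE libraries, with overlapping groups (0.04 ± 0.06, approximate SE; edgeR adjusted p = 0.723).

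The cytoplasmic actins did not pass. Actb, which encodes cytoplasmic beta-actin, stood at 3116, 3655 and 4114 CPM in placode-enriched libraries (lowest, median and highest), against 3834, 3970 and 4535 CPM in IFE libraries. The groups overlapped, and the log2 fold change of -0.18 ± 0.07 missed the threshold (edgeR adjusted p = 0.0752). Actg1, encoding gamma-actin, stood at 387, 495 and 592 CPM in placode-enriched libraries, against 421, 532 and 656 CPM in IFE libraries (-0.20 ± 0.11; edgeR adjusted p = 0.204). Without replicate 5, Actb and Actg1 passed as lower (edgeR adjusted p = 0.0373 and 0.0107). Actb made up 88.3 ± 1.27% of the sum of both in placode-enriched and 88.1 ± 1.13% in IFE libraries, on a scale of CPM per kilobase of exon (SD, n = 7 each). Their coding sequences are alike, so reads can be split between them. Acta2, the smooth muscle alpha-actin, was scarce and fell: it stood at 0.0804, 0.878 and 1.82 CPM in placode-enriched libraries, against 2.87, 5.14 and 7.91 CPM in IFE libraries (-2.65 ± 0.34; edgeR adjusted p = 4.52e-05). All placode-enriched libraries lay under all IFE libraries. Of 8 smooth muscle and pericyte markers listed, 7 were in the counts and 3 could be tested, with 1 higher and 2 not passing. Their sum was 44.4 to 86.7 CPM in placode-enriched and 38.0 to 57.6 CPM in IFE libraries. Most of it was Cspg4, with a mean of 37.4 CPM in placode-enriched libraries, against 13.7 CPM in IFE libraries, and Mcam, with a mean of 28.5 CPM in placode-enriched libraries, against 30.7 CPM in IFE libraries. Actg2, the other smooth muscle actin, was too scarce to test and averaged 0.0160 CPM in placode-enriched libraries, against 0.129 CPM in IFE libraries, lower in 6 of 7 pairs. Tagln and Cnn1, both on the smooth muscle and pericyte list, reached at most 31 and 5 counts in any library. Unlike Acta2 and Actg2, Tagln was higher in 6 of 7 pairs, but it did not pass (1.54 ± 0.79; edgeR adjusted p = 0.163). The part of smooth muscle cells in the Acta2 result was not tested.

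Myosin II heavy chains shifted in proportion. Myh9, the heavy chain of non-muscle myosin IIA, fell slightly and stood at 644, 874 and 1121 CPM in placode-enriched libraries, against 897, 1084 and 1242 CPM in IFE libraries (-0.30 ± 0.07; edgeR adjusted p = 0.00556). It was lower in 7 of 7 pairs although the groups overlapped, and without the pair as a block the call was lost (adjusted p = 0.0514). Myh10, the heavy chain of myosin IIB, rose: it stood at 143, 160 and 189 CPM in placode-enriched libraries, against 114, 123 and 142 CPM in IFE libraries (0.41 ± 0.07; edgeR adjusted p = 3.81e-04), with every placode-enriched library above every IFE library. Myh14, the heavy chain of myosin IIC, fell to 0, 0.404 and 1.10 CPM in placode-enriched libraries, against 1.97, 2.31 and 3.65 CPM in IFE libraries (-2.77 ± 0.58; edgeR adjusted p = 0.00251). In 1 placode-enriched library it had no counts, and the groups did not overlap. Per kilobase of exon, Myh10 accounted for 18.7 ± 2.66% of the sum of these 3 heavy chains in placode-enriched and 12.3 ± 1.07% in IFE libraries, higher in 7 of 7 pairs and without overlap (15.0 to 23.2% against 10.9 to 13.9%). The share of Myh9 was 81.2 ± 2.61% in placode-enriched and 87.4 ± 1.02% in IFE libraries, and that of Myh14 was 0.0758 ± 0.0676% in placode-enriched and 0.368 ± 0.0792% in IFE libraries. Myh7b, related to cardiac heavy chains, did not pass (0.45 ± 0.49). The 9 other heavy chains were not tested, namely Myh1, Myh3, Myh4, Myh6, Myh7, Myh8, Myh11, Myh13 and Myh15, which with few exceptions serve muscle. Their largest counts in any library were 3, 8, 5, 17, 3, 13, 28, 11 and 8, in that order of genes, the highest being that of smooth muscle Myh11. Of 11 skeletal muscle markers listed, 7 were in the counts and 3 could be tested, 1 was higher and 2 did not pass, and their sum was 1.56 to 5.24 CPM in placode-enriched and 1.67 to 4.08 CPM in IFE libraries.

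**Figure D2:**
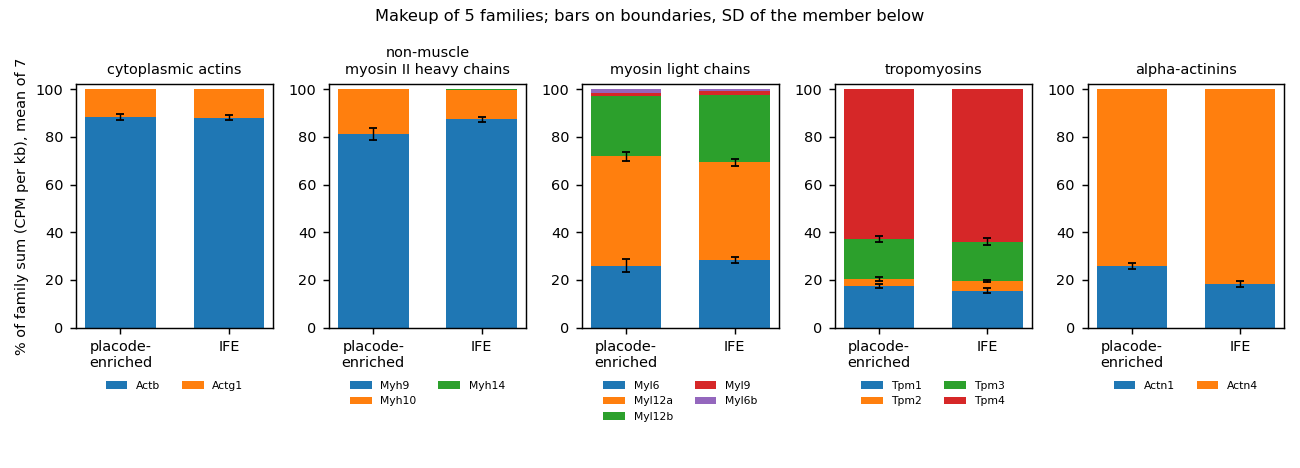
Mean share (y axis, percent of the family's summed CPM per kilobase of exon, n = 7) of each member in 5 families, with the SD at the boundaries that lie under 95%. Myh10 and Actn1 take a larger share in placode-enriched than in IFE cells (18.7% against 12.3%, and 25.8% against 18.2%), and Actb takes 88.3% in placode-enriched and 88.1% in IFE cells.

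Myosin light chains bind the heavy chains and set their activity. Myl12a, a regulatory light chain, stood at 281, 353 and 411 CPM in placode-enriched libraries (lowest, median and highest), against 315, 350 and 387 CPM in IFE libraries (-0.02 ± 0.09; edgeR adjusted p = 0.895). Its near-identical neighbour Myl12b stood at 124, 161 and 197 CPM in placode-enriched libraries, against 181, 191 and 224 CPM in IFE libraries and fell (-0.34 ± 0.09; edgeR adjusted p = 0.0117). The groups overlapped for both, reads can be split between the 2 genes, and the Myl12b call was lost without replicate 1 (edgeR adjusted p = 0.0513). Myl6, the essential light chain of non-muscle myosin, stood at 151, 172 and 262 CPM in placode-enriched libraries, against 209, 236 and 278 CPM in IFE libraries and missed the threshold (-0.32 ± 0.12; edgeR adjusted p = 0.0532), which it passed as lower without replicate 4 or 5, down to an adjusted p of 0.0144, and with DESeq2, limma-voom or scaling by library size only. Myl6b, an essential light chain related to it, rose by 0.68 ± 0.17 and was higher in 6 of 7 pairs. Myl9 did not pass (-0.47 ± 0.26). Myl7, best known from the atria of the heart, was scarce, at 0.394, 0.886 and 1.65 CPM in placode-enriched libraries, against 0.257, 0.334 and 0.601 CPM in IFE libraries (1.27 ± 0.40; edgeR adjusted p = 0.0265). Its groups overlapped, and without replicate 1, 3, 4, 5 or 6 the call was lost, up to an adjusted p of 0.0688. Among Myl6, Myl12a, Myl12b, Myl9 and Myl6b, the share of Myl12a was 45.8 ± 1.86% in placode-enriched and 40.9 ± 1.44% in IFE libraries, and that of Myl12b was 25.3 ± 1.26% in placode-enriched and 28.1 ± 0.767% in IFE libraries. Myl1, Myl4 and Myl10 had at most 3, 7 and 7 counts in any library and were not tested. Of the light chain kinases, Mylk stood at 1.17, 1.61 and 3.35 CPM in placode-enriched libraries, against 1.07, 1.51 and 2.57 CPM in IFE libraries and did not pass (0.41 ± 0.36; edgeR adjusted p = 0.434), and Mylk3 and Mylk4 had at most 44 and 9 counts.

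Among 19 unconventional myosins tested, 4 rose, 5 fell and 10 did not pass, or 47.4% called against 31.1% of all genes. Myo1e, a class I myosin that links membranes to actin, rose in placode-enriched cells. It stood at 93.0, 109 and 119 CPM in placode-enriched libraries, against 39.3, 58.9 and 66.6 CPM in IFE libraries (0.90 ± 0.08; edgeR adjusted p = 2.19e-06). The groups did not overlap, and it was higher in 7 of 7 pairs. The class I members Myo1c (-0.19 ± 0.08), Myo1d (-0.21 ± 0.10), Myo1a (0.77 ± 0.41) and Myo1h (-0.82 ± 0.46) did not pass, although Myo1c passed as lower without replicate 5 (edgeR adjusted p = 0.0262). Myo16, a myosin best known from neurons, was scarce and rose: it stood at 3.42, 6.07 and 7.01 CPM in placode-enriched libraries, against 1.53, 2.38 and 3.17 CPM in IFE libraries (1.24 ± 0.18; edgeR adjusted p = 1.23e-04), without overlap.

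Myo5b, a motor of the recycling endosome, was the lowest of the 60 members in fold change. It stood at 3.93, 4.37 and 6.08 CPM in placode-enriched libraries, against 25.8, 32.4 and 41.0 CPM in IFE libraries, with all placode-enriched libraries far under the IFE libraries (-2.79 ± 0.13; edgeR adjusted p = 3.43e-09). Its paralogue Myo5a, which moves melanosomes in pigment cells, stood at 85.8, 94.6 and 116 CPM in placode-enriched libraries, against 69.7, 80.7 and 88.8 CPM in IFE libraries and rose a little (0.28 ± 0.09; edgeR adjusted p = 0.0271), while the melanoblast markers were lower, and without replicate 4 or 6 its call was lost, up to an adjusted p of 0.0790. The third class V member, Myo5c, did not pass (0.22 ± 1.03). Myo6, which walks towards the pointed end of filaments, stood at 9.49, 13.9 and 17.5 CPM in placode-enriched libraries, against 16.5, 19.7 and 21.4 CPM in IFE libraries and fell (-0.57 ± 0.12; edgeR adjusted p = 0.00277). The mitochondrial motor Myo19 fell as well (-0.51 ± 0.11), and so did Myo9a (-0.30 ± 0.09), a call lost without replicate 1, 2, 4 or 6, up to an adjusted p of 0.0744, and without the pair block (0.0536). Myo15b stood at 0.236, 0.531 and 1.07 CPM in placode-enriched libraries, against 0.314, 1.29 and 1.92 CPM in IFE libraries (-1.13 ± 0.36; edgeR adjusted p = 0.0267), a call lost without replicate 3, 4, 6 or 7, up to an adjusted p of 0.0870.

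Myo18a and Myo10 did not pass. Myo18a, a myosin that binds actin with little motor activity, stood at 138, 168 and 203 CPM in placode-enriched libraries, against 147, 165 and 190 CPM in IFE libraries (0.01 ± 0.09; edgeR adjusted p = 0.930). Myo10, a motor of filopodia, stood at 133, 157 and 215 CPM in placode-enriched libraries, against 128, 154 and 173 CPM in IFE libraries (0.12 ± 0.07; edgeR adjusted p = 0.222). The groups of both overlapped. Myo9b (-0.07 ± 0.07), Myo7a (-0.34 ± 0.13) and Myo15 (1.13 ± 0.57) did not pass. Myo7a and Myo15 are known from hair cells of the inner ear, and Myo7a passed as lower without replicate 1 (edgeR adjusted p = 0.00567), without the pair block (0.0294), and with DESeq2 or limma-voom. Myo18b, Myo1f, Myo1g, Myo3a, Myo3b and Myo7b were not tested and had at most 13, 18, 10, 9, 24 and 2 counts in any library, in that order.

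**Figure D3:**
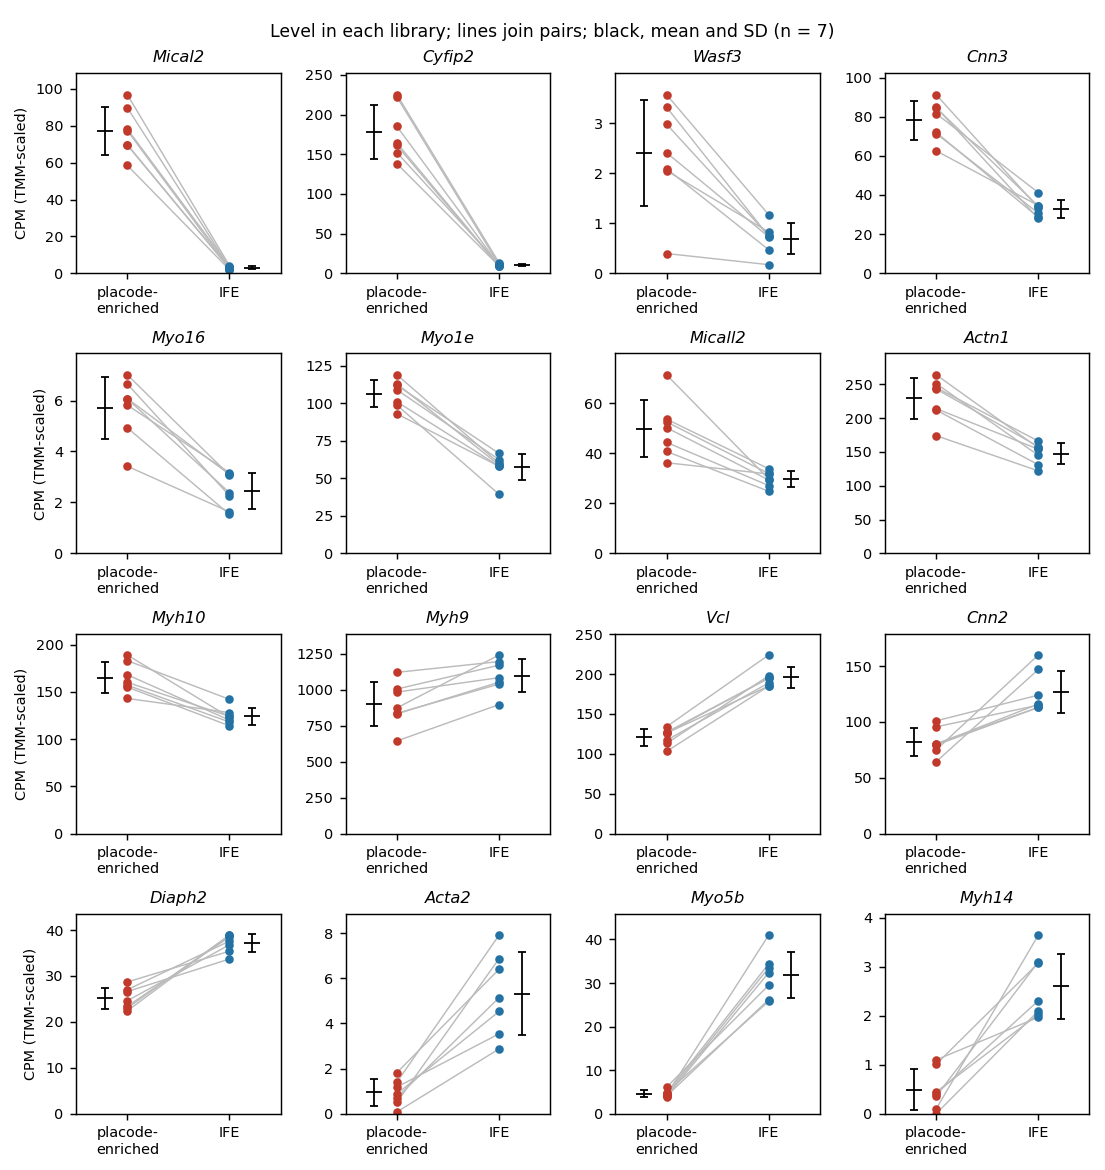
CPM (y axis, from 0) of 16 members in each library, placode-enriched in red on the left and IFE in blue on the right, with grey lines joining the pairs and the mean and SD in black (n = 7 each). Mical2 lies between 58.5 and 96.9 CPM in placode-enriched and between 1.93 and 4.09 CPM in IFE libraries, while Myh9 overlaps between the groups although it is lower in the placode-enriched library of every pair.

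Tropomyosins were close to equal. Tpm4, the most abundant per length, stood at 182, 196 and 223 CPM in placode-enriched libraries, against 187, 202 and 209 CPM in IFE libraries (-0.00 ± 0.07; edgeR adjusted p = 0.983). Tpm1 stood at 152, 162 and 170 CPM in placode-enriched libraries, against 128, 139 and 160 CPM in IFE libraries and rose by 0.20 ± 0.07 (edgeR adjusted p = 0.0375). It was higher in 7 of 7 pairs with overlapping groups, but the call was lost without replicate 2, 3, 4 or 7, up to an adjusted p of 0.0897. Tpm2 fell (-0.43 ± 0.13; edgeR adjusted p = 0.0219), a call lost without replicate 1 (0.0725), and Tpm3 (0.05 ± 0.09) did not pass. The gene Tpm3-rs7 is a near copy of Tpm3, with which it can share reads, and did not pass (-0.03 ± 0.33). Per kilobase, Tpm4 made up 62.9 ± 1.59% of the 4 main tropomyosins in placode-enriched and 64.1 ± 1.65% in IFE libraries, and Tpm1 17.4 ± 0.732% in placode-enriched and 15.5 ± 1.01% in IFE libraries. Gene counts do not separate the many splice forms of these genes.

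The crosslinkers split. Actn1, a non-muscle alpha-actinin, stood at 174, 243 and 264 CPM in placode-enriched libraries, against 122, 154 and 166 CPM in IFE libraries (0.63 ± 0.07; edgeR adjusted p = 6.97e-06), without overlap. Actn4, the other non-muscle form, stood at 610, 745 and 811 CPM in placode-enriched libraries, against 664, 729 and 808 CPM in IFE libraries with overlapping groups (-0.02 ± 0.07; edgeR adjusted p = 0.900). The share of Actn1 in the sum of both, per kilobase, was 25.8 ± 1.34% in placode-enriched and 18.2 ± 1.33% in IFE libraries, higher in 7 of 7 pairs and without overlap (24.0 to 28.2% against 16.6 to 20.2%). Vcl, encoding vinculin, moved the other way and stood at 103, 126 and 134 CPM in placode-enriched libraries, against 185, 195 and 224 CPM in IFE libraries (-0.70 ± 0.06; edgeR adjusted p = 1.97e-06), again without overlap. The muscle forms were scarce. Actn3 stood at 0.390, 0.606 and 0.787 CPM in placode-enriched libraries, against 0, 0.0571 and 0.385 CPM in IFE libraries (2.42 ± 0.69; edgeR adjusted p = 0.0153). Actn2 stood at 0.443, 1.46 and 2.38 CPM in placode-enriched libraries, against 1.98, 2.64 and 3.59 CPM in IFE libraries (-1.17 ± 0.38; edgeR adjusted p = 0.0301), and its call was lost without replicate 1, 2 or 7, up to an adjusted p of 0.0871.

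Calponins, actin binders that steady filaments, went in opposite directions. Cnn3 stood at 62.6, 81.6 and 91.3 CPM in placode-enriched libraries, against 28.0, 33.5 and 41.2 CPM in IFE libraries (1.25 ± 0.09; edgeR adjusted p = 2.91e-07), and Cnn2 at 64.3, 80.0 and 101 CPM in placode-enriched libraries, against 113, 116 and 160 CPM in IFE libraries (-0.62 ± 0.11; edgeR adjusted p = 8.49e-04). Neither gene's groups overlapped. Tagln2, a transgelin related to the calponins, rose by 0.34 ± 0.09 in 6 of 7 pairs. Cfl1, encoding the main non-muscle cofilin, stood at 1046, 1225 and 1453 CPM in placode-enriched libraries, against 995, 1000 and 1350 CPM in IFE libraries (0.16 ± 0.10; edgeR adjusted p = 0.253), with overlapping groups, and passed as higher without replicate 3 (edgeR adjusted p = 0.0227).

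The MICAL family held the member with the largest fold change. Mical2 (ENSMUSG00000038244, chromosome 7, 112225856 to 112413106, plus strand, GRCm38) stood at 58.5, 77.4 and 96.9 CPM in placode-enriched libraries (lowest, median and highest), against 1.93, 2.84 and 4.09 CPM in IFE libraries. Every placode-enriched library lay above every IFE library by more than an order of magnitude. The log2 fold change was 4.72 ± 0.10 (edgeR adjusted p = 5.72e-12), and the differences within pairs lay between 4.40 and 4.93. Mical1 rose as well, at 22.9, 28.6 and 41.0 CPM in placode-enriched libraries, against 16.1, 18.3 and 19.1 CPM in IFE libraries (0.67 ± 0.12; edgeR adjusted p = 7.77e-04), without overlap. Mical3 stood at 41.2, 58.5 and 84.5 CPM in placode-enriched libraries, against 40.2, 52.4 and 64.3 CPM in IFE libraries and did not pass (0.22 ± 0.09; edgeR adjusted p = 0.0952), though it did as higher without replicate 3 (0.0329) and with scaling by library size only. The MICAL-like genes, which lack the oxidising domain and act in membrane traffic, differed in sign: Micall2 rose (0.72 ± 0.11) without overlap, and Micall1, at 84.9, 115 and 156 CPM in placode-enriched libraries, against 139, 178 and 198 CPM in IFE libraries, fell (-0.61 ± 0.08; edgeR adjusted p = 7.65e-05) with overlapping groups.

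In the WAVE complex, which switches on Arp2/3 downstream of Rac, Cyfip2 rose and its paralogue Cyfip1 did not pass. Cyfip2 (ENSMUSG00000020340, chromosome 11, 46193850 to 46312859, minus strand, GRCm38) stood at 138, 164 and 225 CPM in placode-enriched libraries (lowest, median and highest), against 8.65, 9.92 and 13.2 CPM in IFE libraries. The groups were far apart, the log2 fold change was 4.11 ± 0.09 (edgeR adjusted p = 8.75e-12), and the differences within pairs lay between 3.74 and 4.39. Cyfip1 stood at 114, 137 and 151 CPM in placode-enriched libraries, against 124, 151 and 158 CPM in IFE libraries (-0.14 ± 0.08; edgeR adjusted p = 0.225), with overlapping groups, and passed as lower without replicate 3 (0.0432). Per kilobase of exon, Cyfip2 averaged 25.1 ± 4.82 in placode-enriched and 1.44 ± 0.228 in IFE libraries, while Cyfip1 averaged 11.2 in placode-enriched and 12.4 in IFE libraries (CPM per kilobase). Wasf3, a neuronal WAVE protein, stood at 0.394, 2.41 and 3.57 CPM in placode-enriched libraries, against 0.171, 0.737 and 1.17 CPM in IFE libraries (1.75 ± 0.29; edgeR adjusted p = 3.92e-04). It was higher in 7 of 7 pairs, but 1 placode-enriched library lay among the IFE libraries. The widely expressed Wasf2 stood at 162, 249 and 342 CPM in placode-enriched libraries, against 203, 276 and 290 CPM in IFE libraries (-0.09 ± 0.09; edgeR adjusted p = 0.461), with overlapping groups. Wasf1 missed the threshold (0.31 ± 0.12; edgeR adjusted p = 0.0549) and passed as higher without replicate 1 or 3 and under other scalings and tools, down to an adjusted p of 0.0239.

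Diaphanous formins, which elongate straight filaments, were lower or did not pass. Diaph2 stood at 22.4, 24.6 and 28.7 CPM in placode-enriched libraries, against 33.7, 37.6 and 38.9 CPM in IFE libraries and fell without overlap (-0.57 ± 0.09; edgeR adjusted p = 2.50e-04). Diaph1 stood at 38.2, 54.0 and 66.4 CPM in placode-enriched libraries, against 55.2, 65.3 and 72.2 CPM in IFE libraries and fell in 6 of 7 pairs (-0.27 ± 0.08; edgeR adjusted p = 0.0218), a call lost without replicate 2, 4 or 7, up to an adjusted p of 0.0974, and without the pair block (0.0745). Diaph3 stood at 71.8, 83.3 and 90.4 CPM in placode-enriched libraries, against 78.5, 91.4 and 101 CPM in IFE libraries (-0.12 ± 0.07; edgeR adjusted p = 0.257), with overlapping groups.

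**Figure D4:**
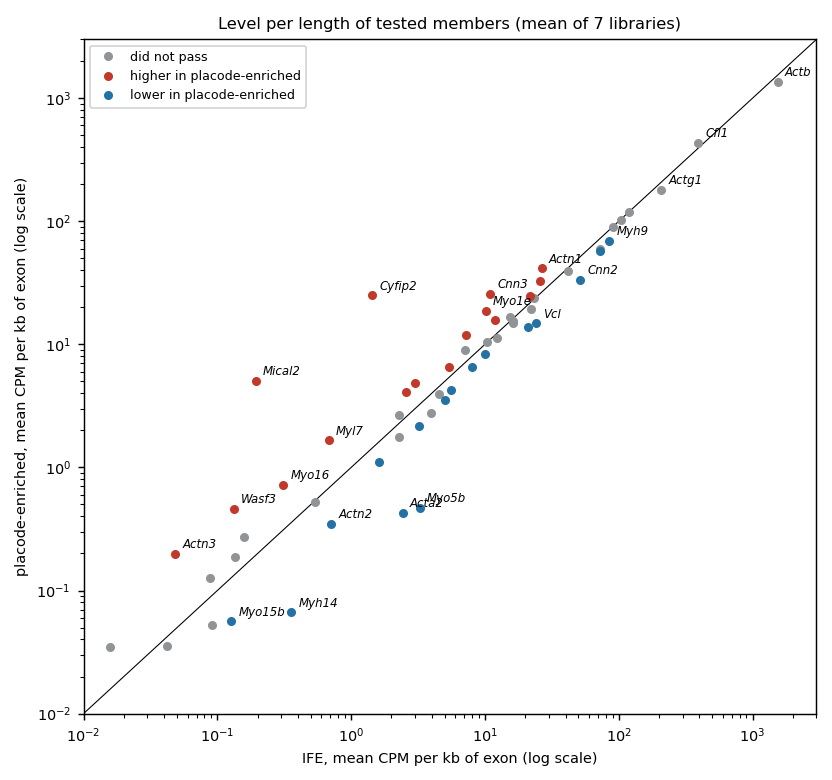
Mean level of tested members per kilobase of merged exons (CPM per kilobase, both axes logarithmic), placode-enriched on the y axis against IFE on the x axis, with equality as the line. Most abundant members lie near the line, from Actb (1363 against 1542) down, and Cyfip2 (25.1 against 1.44) and Mical2 (5.07 against 0.194) lie far above it.

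On this scale of levels per length, the first 9 members came in the same order in both fractions. Actb led with 1363 ± 127 CPM per kilobase in placode-enriched and 1542 ± 103 in IFE libraries (SD, n = 7 each), followed by Cfl1 with 435 ± 45.3 in placode-enriched and 391 ± 55.3 in IFE libraries. Actg1 came next with 181 ± 26.5 in placode-enriched and 208 ± 30.5 in IFE libraries. Actn4, Myl12a and Tpm4 followed at 119 ± 12.4, 103 ± 15.2 and 90.2 ± 6.40 in placode-enriched libraries, where Myl12a and Tpm4 were closer than the SD of Myl12a. In IFE libraries they stood at 120 ± 8.95, 104 ± 7.28 and 90.3 ± 4.27, with gaps larger than the SDs. Myh9, Myl6 and Myl12b completed the 9. Cyfip2 stood at place 15 in placode-enriched and at place 45 in IFE libraries, and Cnn3 at place 14 in placode-enriched and 24 in IFE libraries.

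**Figure D5:**
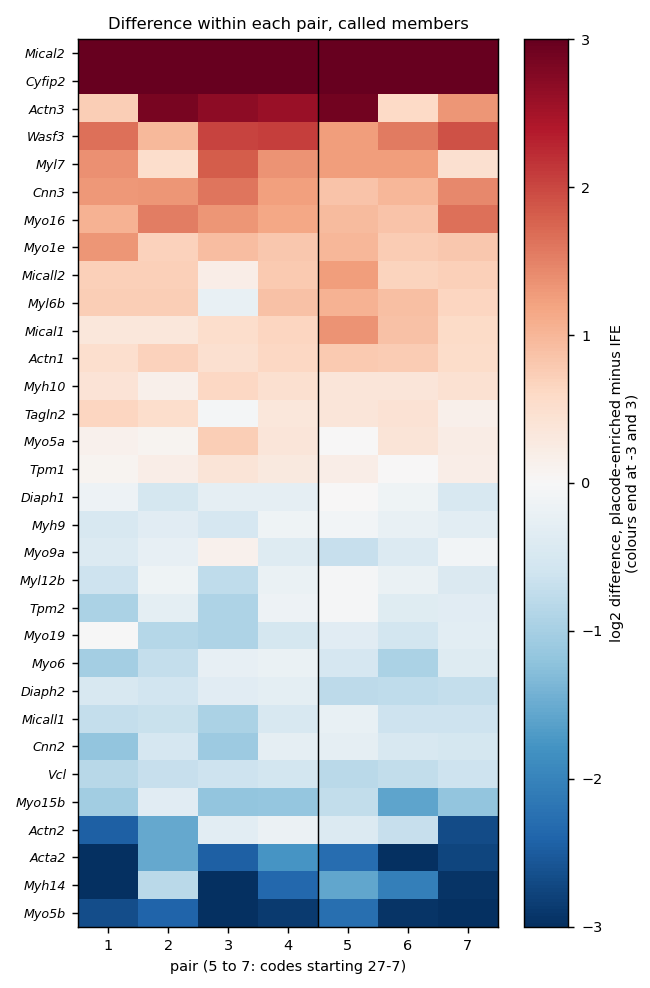
Log2 difference within each of the 7 pairs (columns, placode-enriched minus IFE) for called members (rows, sorted by fold change), with colours that end at -3 and 3. Mical2 and Cyfip2 are beyond the upper end in every pair, and small changes such as that of Tpm1 stay pale across pairs.

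The size of these differences varied between pairs for scarce members, from -5.16 to -0.80 for Myh14, from -4.38 to -1.54 for Acta2 and from -2.68 to -0.18 for Actn2 (log2 differences). In 32 of the 60 members all 7 pairs had the same sign, which held for 26.4% of all genes. The 3 pairs with title codes of the 27-7 kind and the 4 others were compared by an interaction term fitted across all genes, and 0 members and 0 of all genes (0%) passed by edgeR or limma-voom. At an unadjusted p under 0.05, edgeR had 4 members and 528 genes, or 3.43% of all, and limma-voom had 4 members and 601 genes, or 3.91%. With the 3 pairs alone 12 members were higher and 7 lower, with 2331 of all genes called. With the 4 others alone 11 members were higher and 13 lower, with 3087 of all genes called, against 4786 with all pairs.

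Other genes of actin dynamics, on lists drawn up by gene name, were called in both directions. Among 135 such genes tested, 29 rose, 40 fell and 66 did not pass, or 51.1% called against 31.1% of all genes, with a median log2 fold change of -0.03. In the Arp2/3 complex, which branches filaments, 5 of 9 were lower, 0 were higher and 4 did not pass (median -0.27). Its subunit gene Actr3 stood at 133, 148 and 180 CPM in placode-enriched libraries, against 179, 192 and 245 CPM in IFE libraries (-0.37 ± 0.07), and Arpc5 (-0.35 ± 0.08) and Arpc4 (-0.36 ± 0.12) also fell. Of 11 partners of WAVE and WASP, 2 were higher, 1 lower and 8 did not pass (median -0.01). Wipf1, which binds WASP proteins, rose by 1.84 ± 0.16, the WAVE subunit gene Abi2 rose by 0.55 ± 0.07, and the WAVE subunit gene Nckap1 fell (-0.35 ± 0.11).

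Of 21 kinases and phosphatases acting on actomyosin, 3 were higher, 6 lower and 12 did not pass (median -0.01). The share called was 42.9%, against 31.1% of all genes. Pak1, a kinase below Rac and Cdc42, rose by 1.19 ± 0.13, whereas Limk2, which inactivates cofilin, stood at 84.9, 98.5 and 107 CPM in placode-enriched libraries, against 170, 185 and 212 CPM in IFE libraries and fell (-0.96 ± 0.08), as did the myotonic dystrophy-related kinase gene Cdc42bpg (-0.81 ± 0.12). Limk1, the less abundant paralogue of Limk2, rose instead (0.71 ± 0.12). Its levels were 26.0, 29.9 and 45.3 CPM in placode-enriched libraries, against 17.5, 19.2 and 23.4 CPM in IFE libraries.

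Monomer binding, severing and capping genes went both ways, with 5 of 18 higher, 6 lower and 7 not passing (median -0.05). The share called was 61.1%, against 31.1% of all genes. The profilin gene Pfn2 rose (1.21 ± 0.11). Dstn, a severing protein related to cofilin, stood at 137, 153 and 196 CPM in placode-enriched libraries, against 237, 296 and 343 CPM in IFE libraries and fell (-0.86 ± 0.07), and Tmsb4x, encoding a thymosin that holds actin monomers, stood at 337, 469 and 698 CPM in placode-enriched libraries, against 747, 801 and 1005 CPM in IFE libraries and fell as well (-0.80 ± 0.09). The more abundant thymosin gene Tmsb10 rose instead (0.43 ± 0.15; edgeR adjusted p = 0.0452). Its median was 1966 CPM in placode-enriched libraries, against 1311 CPM in IFE libraries. Among the 16 other formins and elongation factors, 4 rose, 5 fell and 7 did not pass (median -0.00). The formin gene Fmn2 rose (1.13 ± 0.11), and the nucleator genes Cobl (-1.09 ± 0.11) and Spire1 (-0.67 ± 0.11) fell. Of 28 crosslinkers and membrane anchors, 7 were higher, 8 lower and 13 did not pass (median -0.00), or 53.6% called. The bundler gene Espn (1.62 ± 0.19) and Pdlim4 (1.52 ± 0.10) rose, and Palld, encoding palladin of stress fibres, fell (-1.41 ± 0.15). Of the remaining actins, calponins and transgelins, 2 of 7 could be tested and the scarce Tagln3 rose (2.70 ± 0.37). On these lists, the values in brackets are log2 fold changes with approximate standard errors, and every gene named as rising or falling passed the same edgeR test.

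Of the 60 tested members, 28 overlap the span of a gene on the opposite strand, introns included. No strand setting is stated and overlap of exons was not checked, so reads of the partner may be among their counts. Among these 28 members are Cyfip2, Vcl, Cnn3, Actn1, Myo5b and Myh14. The values of suprabasal, periderm and melanoblast markers given above moved with the fractions, and their part in the fold changes of the members was not tested.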

How the data were processed

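The authors deposited one table of raw read counts per Ensembl gene. The submitters' processing notes name bcl2fastq, Trimmomatic, FastQC, MultiQC, STAR and HTSeq with the builds GRCm38 and mm10, but give no annotation release or strand setting. Of 26252 gene IDs, 25949 were matched to GENCODE M21, and the 303 others held 0.436% of the counts. Pairs came from the title codes and littermate pools in the labels. Same-numbered libraries deviated together only weakly, with correlations of -0.132 to 0.195.

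Counts were tested with edgeR 4.0.16 in R 4.3.3 (TMM scaling, filterByExpr, robust quasi-likelihood F test, pair as a block, Benjamini-Hochberg threshold 0.05). The filter removed 10870 genes. Fold changes used a prior count of 0.125, and standard errors are approximate, from the coefficient over the root of F. CPM uses TMM-scaled totals. The alternatives were other scalings and filters, DESeq2 1.42.0, limma-voom 3.58.1, no block, each pair left out, and both code sets alone. The steps were tested on simulated data. Tested members are named, except for 1 that stays in the counts but, like 2 of the pathway lists, is not reported here, and of each other pathway list the up to 3 called genes with the largest fold changes among those at 10 CPM or more in the higher fraction, or the gene with the highest CPM where none was called. Tagln3, Tagln, Cnn1, Actg2, Cspg4, Mcam, Erbb3, Dcn, Limk1 and Tmsb10 were named after their values were seen. Members and lists were chosen with earlier results of these data known. P-values of the blocked tests reflect how the difference between the fractions varies across the litter pairs.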

Additional observations from a re-analysis of the deposited data

Results flagged for a closer look

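In 9 of the 120 groups of 7 libraries checked (60 members in both fractions), a single library lay apart from the other 6 by Dixon's criterion, and chance alone gives about 1 in 20 groups. In the IFE libraries, replicate 1 was lowest for Myo1e (39.3 CPM, the others 58.0 to 66.6), for Myo19 (23.5 CPM, the others 35.1 to 40.7) and for Myo7a (11.8 CPM, the others 19.2 to 23.5), and highest for Myo1a (1.50 CPM, the others 0.302 to 0.812). Replicate 2 of IFE was highest for Myo1h (1.23 CPM, the others 0.300 to 0.508), and replicate 3 for Myl6 (278 CPM, the others 209 to 238). Replicate 6 of IFE was highest for Vcl (224 CPM, the others 185 to 198), and replicate 5 lowest for Mical1 (16.1 CPM, the others 17.9 to 19.1). In placode-enriched libraries, replicate 5 was highest for Myo5b (6.08 CPM, the others 3.93 to 4.84). Without these libraries' pairs, Myo1e, Myo19, Vcl, Mical1 and Myo5b kept their calls.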

How the results depend on the processing

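The pair block moved few calls: without it 17 members were higher and 14 lower, Diaph1, Myh9 and Myo9a were lost, Myo7a was gained, and 4689 of all genes were called. Under the other scalings, filters and tools, 15 to 19 members were higher and 15 to 18 lower. Leaving out 1 pair gave 14 to 18 members higher, 13 to 20 lower and 3953 to 5229 genes called, and 24 of the 33 called members kept their call in every such fit. With the 4 pairs of other codes alone, 11 members were higher and 3087 genes were called, and with the 27-7 pairs alone 7 members were lower and 2331 genes were called; both use fewer libraries. The calls of Myl7, Myo15b and Tpm1 were lost with no filter on low counts, that of Actn2 with limma-voom, and that of Myo9a with library size only. No called member changed sign under any alternative run. Members that did not pass changed sign as follows, and the cause was not tested. With the 27-7 pairs alone the log2 fold change was 0.13 for Myl12a, 0.11 for Myl9, 0.01 for Myo1c, 0.02 for Myo9b, -0.02 for Tpm3, 0.02 for Tpm4, 0.04 for Actn4 and 0.05 for Wasf2. With the other pairs alone it was -0.27 for Mylk, -0.14 for Myo18a and 0.27 for Tpm3-rs7. With library size only it was 0.01 for Myl12a, 0.03 for Tpm4 and 0.02 for Actn4, and with upper-quartile scaling 0.00 for Actn4. Tpm4 was at 0.01 with DESeq2 size factors, upper-quartile scaling, either other filter, DESeq2 or mitochondrial genes left out. Myo5c was at -0.26 with no replicate block and -0.06 with limma-voom. Leaving out 1 pair gave ranges of -0.08 to 0.05 for Myl12a, -0.04 to 0.07 for Myo18a, -0.30 to 0.85 for Myo5c, -0.05 to 0.09 for Tpm3, -0.16 to 0.08 for Tpm3-rs7, -0.02 to 0.03 for Tpm4 and -0.03 to 0.03 for Actn4. The share of Tpm3 among tropomyosins changed sign without length correction, to -0.136 percentage points. Members with few counts, such as Actn3, Myh14 and Myo5c, have the widest errors.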
